A study of Mus musculus with 14 samples.

Results

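Megakaryocytes and platelets were followed through 9 genes, *Pf4*, *Ppbp*, *Itga2b*, *Itgb3*, *Gp1ba*, *Gp5*, *Gp6*, *Gp9* and *Vwf*, taken by symbol from the 55401 genes counted in marrow flushed from distal tibiae of mice. All 9 are among the 23441 genes of the deposited count matrix, and all 9 passed the filter on low counts that left 17494 genes for testing. The marrow came from male mice of the C57BL6/SJL strain at 24 weeks of age, and each of the 14 libraries pooled marrow of 2 mice. Libraries fell into 4 groups by genotype and diet. BMAd-Pnpla2+/+ mice, the controls, gave 4 libraries from mice fed ad libitum (AL) and 4 from mice on a 30% caloric restriction (CR) for 6 weeks. BMAd-Pnpla2-/- mice, in which floxed *Pnpla2* (the gene of adipose triglyceride lipase) is deleted in bone marrow adipocytes, gave 3 AL and 3 CR libraries. By the study's methods, the deletion relied on Osterix-FLPo together with a FLPo-activated Cre in the *Adipoq* gene. Both groups of mice carry that driver, which lowers circulating adiponectin, also labels a small set of stromal cells and recombines incompletely in young animals.

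A megakaryocyte is the large polyploid marrow cell that sheds platelets into the sinusoids. It loads them with alpha granules, which carry chemokines and von Willebrand factor, and covers them with receptors for collagen, fibrinogen and von Willebrand factor, so that the transcripts of these proteins mark the lineage in whole marrow. In bulk marrow, fewer megakaryocytes and less RNA of a gene per megakaryocyte cannot be told apart. *Itgb3* and *Vwf* are also made by other cells, the former by osteoclasts and endothelial cells and the latter by endothelial cells.

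Transcripts of all 9 genes were present in every library, with between 374 and 23861 read pairs a gene and library. Per kilobase of merged exons, the mean level in BMAd-Pnpla2+/+ AL was highest for *Ppbp*, at 882 ± 232 CPM per kb (CPM, reads of a gene in relation to all gene reads of the library, scaled by TMM; SD, n = 4). *Pf4* followed at 313 ± 67.3 CPM per kb (SD, n = 4). *Gp9*, at 144 ± 30.0, *Itgb3*, at 129 ± 38.0, *Itga2b*, at 105 ± 19.6, and *Gp5*, at 98.4 ± 22.9 CPM per kb (SD, n = 4 each), lay within 1 SD of their neighbours in this order. *Gp1ba* stood at 56.9 ± 14.8, *Vwf* at 23.5 ± 6.96 and *Gp6* at 10.1 ± 3.88 CPM per kb (SD, n = 4 each). The 9 genes lie on 5 chromosomes, 5, 6, 7, 11 and 16.

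*Gp9*, *Gp1ba*, *Gp5* and *Gp6* encode platelet surface glycoproteins, and their promoters are shown because megakaryocyte genes are known to be switched on by GATA and ETS factors, GATA1 and FLI1 among them, and these are the 4 genes, of 7 searched, in which a GATAA was found. The 150 bases before each start site are given 5′ to 3′ on the gene's strand, from RefSeq on GRCm38.p6, with the letters GATAA and AGGAA, or their reverse complements, in capitals.
Gp9, chr6:87777920-87778069, plus strand: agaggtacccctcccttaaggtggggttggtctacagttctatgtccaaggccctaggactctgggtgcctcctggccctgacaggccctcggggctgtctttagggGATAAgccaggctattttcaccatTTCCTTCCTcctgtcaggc
Gp1ba, chr11:70638972-70639121, plus strand: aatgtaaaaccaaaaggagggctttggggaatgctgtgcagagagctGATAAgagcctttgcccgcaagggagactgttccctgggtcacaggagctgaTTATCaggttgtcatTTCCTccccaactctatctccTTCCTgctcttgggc
Gp5, chr16:30310782-30310931, minus strand: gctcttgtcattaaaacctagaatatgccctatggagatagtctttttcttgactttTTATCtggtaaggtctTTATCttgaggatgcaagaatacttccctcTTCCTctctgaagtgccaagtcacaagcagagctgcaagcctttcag
Gp6, chr7:4397745-4397894, minus strand: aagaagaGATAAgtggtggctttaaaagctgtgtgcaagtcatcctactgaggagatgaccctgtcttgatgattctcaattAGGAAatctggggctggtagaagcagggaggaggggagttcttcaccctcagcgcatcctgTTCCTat

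Of the 9 genes, 7 had a RefSeq promoter entry, and *Itgb3* and *Vwf* had none. In the 250 bases before the start site, GATAA was found on either strand in 4 of these 7, the same 4 genes whose sequences are printed, against 22.6% of all 32851 promoters. AGGAA was found in 7 of 7, against 60.3% of all promoters. *Gp1ba* held GATAA 103 bases before the start site and its reverse complement 51 bases before it. *Gp5* held 2 reverse complements, 93 and 77 bases before its start site. *Gp9* held 1 copy, 43 bases before, and *Gp6* 1 copy, 143 bases before. A match of letters is a description of sequence and not of a bound factor.

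The library totals ranged from 18898324 to 21665553 gene read pairs, counted without regard to strand. The 3 BMAd-Pnpla2-/- CR libraries had 50.1% to 50.49% of their gene reads on the first strand, against 4.304% to 4.62% in the other 11, so this property of the libraries and that group cannot be told apart. Counting without strand adds few reads to the 9 genes. Only 0.281% to 2.64% of their reads in the 11 stranded libraries lay on the first strand, and the 9 share no exon base with another gene. Whether these 3 libraries also differ in other steps of preparation was not tested. Every comparison that uses BMAd-Pnpla2-/- CR carries this limit. As a check of the labels, *Pnpla2* was at 840 ± 241 CPM (SD, n = 4) in BMAd-Pnpla2+/+ CR and 224 ± 45.5 CPM (SD, n = 3) in BMAd-Pnpla2-/- CR, a log2 difference of -1.91 (edgeR quasi-likelihood test, padj 0.0387). In AL mice it was at 219 ± 58.4 CPM (SD, n = 4) and 148 ± 21.7 CPM (SD, n = 3), with every BMAd-Pnpla2-/- library below every control library, which did not pass the test (log2 difference -0.57, edgeR unadjusted p 0.0378). The labelled tissue is adipose marrow. The 9 adipocyte marker genes, led by *Cfd*, summed to 507 to 1058 CPM in BMAd-Pnpla2-/- AL and 2524 to 6325 CPM in BMAd-Pnpla2+/+ CR, with none at 0 throughout, while the 10 neutrophil marker genes summed to 13200 to 35329 CPM over all libraries.

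**Figure D1:**
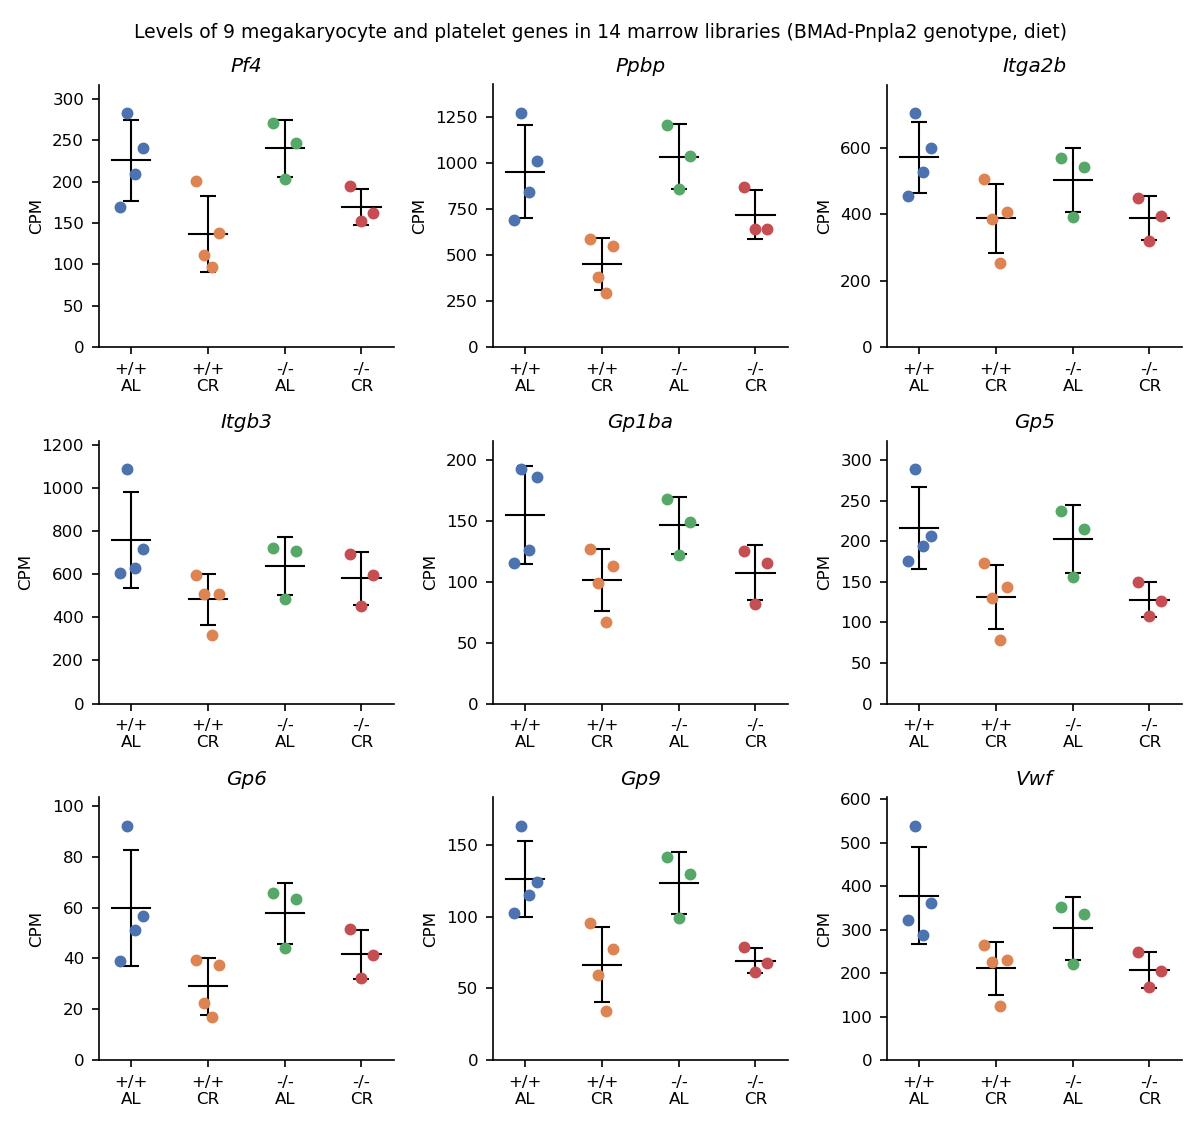
Level of each gene in CPM (vertical axis, from 0, scaled to each gene) in the 4 groups of BMAd-Pnpla2 genotype and diet (horizontal axis). Points are libraries, the long bar is the mean and the whiskers are the SD (n = 4, 4, 3 and 3); for all 9 genes both AL means lie above both CR means.

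The first comparison asked how CR changed these transcripts in control marrow. All 9 genes had lower mean levels under CR, and 6 of 9 passed the test (edgeR quasi-likelihood, Benjamini-Hochberg padj under 0.05 over 17494 genes). These were *Ppbp*, *Gp6*, *Gp9*, *Vwf*, *Pf4* and *Gp5*. Over all tested genes 26.0% passed in either direction and 10.9% passed with a lower level under CR. The median log2 fold change of the 9 genes was -0.72, against 0.003 over all tested genes. *Itgb3*, *Gp1ba* and *Itga2b* missed the threshold, at padj 0.0509, 0.0549 and 0.0541, with intervals that lay below 0 for each.

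Among the alpha granule chemokines, *Ppbp* encodes the precursor of the chemokine CXCL7, which draws neutrophils to activated platelets. Its level in the 4 BMAd-Pnpla2+/+ AL libraries was 690, 1276, 844 and 1011 CPM. Under CR the 4 control libraries held 589, 379, 291 and 551 CPM. Every CR library lay below every AL library, and the log2 fold change was -1.08 ± 0.23 (SE; 95% interval -1.58 to -0.57, padj 0.00788). *Pf4*, platelet factor 4, the chemokine that binds heparin, was at 169, 283, 209 and 241 CPM in AL. It was at 201, 111, 97.2 and 138 CPM in CR. Here the groups overlapped, since 1 CR library lay within the AL range, and the log2 fold change was -0.72 ± 0.21 (SE; 95% interval -1.18 to -0.27, padj 0.0264). *Ppbp* and *Pf4* lie next to each other on chromosome 5, at 90768518 to 90770063 and 90772435 to 90773383 (GRCm38, plus strand). Per kilobase, *Ppbp* was at 2.80 ± 0.14 times the level of *Pf4* in BMAd-Pnpla2+/+ AL (SD, n = 4) and at 2.22 ± 0.33 times in BMAd-Pnpla2+/+ CR (SD, n = 4), against 2.87 ± 0.09 and 2.82 ± 0.17 times in BMAd-Pnpla2-/- AL and CR (SD, n = 3 each); the ratio itself was not tested.

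The GPIb-IX-V complex, the platelet receptor for von Willebrand factor, is represented by *Gp1ba*, its ligand-binding chain, and by *Gp9* and *Gp5*. *Gp9* was at 103, 164, 115 and 124 CPM in the AL control libraries. CR control libraries held 95.6, 59.2, 34.2 and 77.8 CPM. No CR value reached the AL range, and the log2 fold change was -0.92 ± 0.25 (SE; padj 0.0204). *Gp5* was at 175, 289, 194 and 206 CPM in AL. In CR it was at 173, 130, 78.4 and 144 CPM. These groups came close to each other without overlap, with a log2 fold change of -0.72 ± 0.23 (SE; padj 0.0343). *Gp1ba* ranged from 115 to 192 CPM in AL and from 67.1 to 126 CPM in CR, where 3 of 4 libraries lay below the AL range. Its log2 fold change was -0.61 ± 0.22 (SE; padj 0.0549). *Gp1bb*, which encodes the fourth chain, was at 0 to 0.721 CPM and could not be tested. Of its 2087 exon bases, 1902 (91.1%) are also exon of *Sept5* on the same strand in GENCODE M21, and reads that fall on both genes are counted for neither.

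*Gp6*, the receptor through which collagen activates platelets, had the lowest level of the 9 genes. The AL control libraries held 39.0, 92.3, 51.2 and 56.9 CPM. Those of CR held 39.5, 22.4, 16.9 and 37.4 CPM. The highest CR library lay just above the lowest AL library, so that the groups overlapped, and the log2 fold change was -1.04 ± 0.30 (SE; padj 0.0251). *Itga2b* and *Itgb3* encode the pair of chains of integrin alphaIIb-beta3, the fibrinogen receptor. *Itgb3* was at 606, 1088, 628 and 715 CPM in AL, and at 598, 506, 320 and 510 CPM in CR. The AL and CR libraries did not overlap, although narrowly, and the log2 fold change was -0.65 ± 0.23 (SE; padj 0.0509). *Itga2b* went from 455 to 706 CPM in AL and from 254 to 505 CPM in CR, with overlap and a log2 fold change of -0.56 ± 0.20 (SE; padj 0.0541). Both integrin genes had log2 intervals that ended below 0, at -0.16 for *Itgb3* and -0.13 for *Itga2b*.

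*Vwf* encodes the multimeric ligand that tethers platelets to exposed collagen. It was at 322, 539, 288 and 360 CPM in AL control libraries, and at 264, 226, 123 and 230 CPM in CR control libraries. No library of one diet entered the range of the other, and *Vwf* fell by 0.84 on the log2 scale (SE 0.25, padj 0.0288). The endothelial marker genes moved the other way: in control mice 9 of 11 tested rose under CR, none fell, and their median log2 fold change was 0.88, while 2628 of all 17494 genes rose. In BMAd-Pnpla2-/- mice 1 of 11 rose, with a median of 0.46, and 1051 of all genes rose. *Stab2*, the most abundant of them, went from 188 ± 40.4 to 346 ± 115 CPM (SD, n = 4 each). The summed level of all 13 endothelial markers was 822 to 1215 CPM in AL and 1082 to 2286 CPM in CR control libraries. Osteoclast marker genes, the other setting in which *Itgb3* is used, passed as higher in 6 of 10 cases in control mice. Their median log2 fold change there was 1.55. In BMAd-Pnpla2-/- mice none of 10 passed, although 7 had estimates above 0 and the median was 1.01. None passed as lower in either genotype. The osteoclast markers summed to 1564 to 2165 CPM in AL and 1631 to 3989 CPM in CR control libraries.

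**Figure D2:**
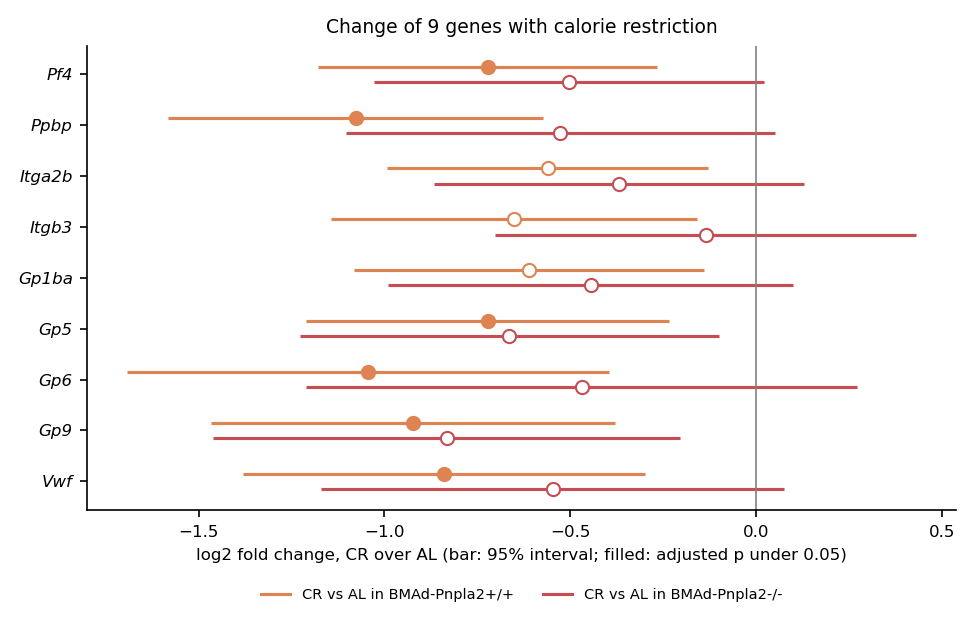
log2 fold change of CR over AL (horizontal axis) for each gene (vertical axis) in BMAd-Pnpla2+/+ and BMAd-Pnpla2-/- mice. Points are estimates, bars 95% intervals and filled points padj under 0.05; all 18 estimates lie below 0, and filled points are the 6 in BMAd-Pnpla2+/+.

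Of the 9 genes, 5 had no overlap between AL and CR control libraries, with CR below (*Ppbp*, *Itgb3*, *Gp5*, *Gp9* and *Vwf*), against 10.4% of all tested genes. Under the study's criteria, which also ask for an absolute log2 fold change over 1, 2 of the 9 genes passed, *Ppbp* and *Gp6*, against 9.19% of all genes. The count of 6 changed with the libraries and the fit used. Fitting only the 2 groups compared left 1 gene, *Ppbp*, past the threshold, against 16.3% of all genes. *Ppbp* was also the only one to pass without BMAd-Pnpla2+/+ AL replicate 2, against 3005 of 17427 genes. The same held without BMAd-Pnpla2+/+ CR replicate 2, against 2650 of 17393 genes. Without BMAd-Pnpla2+/+ CR replicate 3, 2 passed, against 2200 of 17362 genes, and without BMAd-Pnpla2+/+ AL replicate 4, 4 passed, against 3371 of 17429. By contrast, 9 passed in DESeq2's Wald test, against 31.7% of all genes, and in the deposited matrix, against 4845 of 17509. All 9 also passed without BMAd-Pnpla2+/+ AL replicate 1 (4134 of 17447 genes), BMAd-Pnpla2+/+ CR replicate 1 (4642 of 17431) or BMAd-Pnpla2-/- AL replicate 1 (4621 of 18024). Under every one of these settings all 9 estimates stayed below 0, and *Ppbp* passed in each.

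The same question was asked in BMAd-Pnpla2-/- marrow. All 9 genes again had lower means under CR, none passed the test in edgeR, and 2, *Gp9* and *Gp5*, had an unadjusted p under 0.05, as did 29.1% of all genes. In this comparison 11.6% of all tested genes passed, 1051 with a higher and 974 with a lower level. That split depended on the setting. It was 1386 higher and 682 lower when total counts replaced TMM scaling. With DESeq2 size factors it was 900 higher and 1246 lower, and in DESeq2's Wald test 1408 higher and 1690 lower. The median log2 fold change of the 9 genes was -0.50, against 0.05 over all genes. DESeq2 called 1 gene, *Gp9*, against 17.7% of all genes, and a fit of only these 6 libraries called 3, *Gp9*, *Gp5* and *Pf4*, against 16.2%. Without BMAd-Pnpla2+/+ CR replicate 1, which enters only through the shared spread and scaling, *Gp9* passed, against 1865 of 17431 genes. Without BMAd-Pnpla2+/+ CR replicate 3 *Gp9* and *Gp5* passed, against 2402 of 17362 genes.

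*Gp9* was at 142, 99.5 and 130 CPM in BMAd-Pnpla2-/- AL, and at 78.9, 61.5 and 68.0 CPM in BMAd-Pnpla2-/- CR. The groups did not overlap, and the log2 fold change of -0.83 ± 0.29 (SE; 95% interval -1.46 to -0.21, padj 0.078) stood beside -0.92 in controls. *Gp5* was at 238, 156 and 215 CPM in AL and at 150, 108 and 127 CPM in CR, again without overlap, with a log2 fold change of -0.66 ± 0.26 (SE; padj 0.112). *Pf4* was at 271, 203 and 246 CPM against 194, 152 and 162 CPM, the last of the 3 genes without overlap, with a log2 fold change of -0.50 ± 0.24 (SE; padj 0.191). For comparison, 17.4% of all tested genes had every CR library below every AL library in this genotype. *Ppbp* overlapped, at 1211, 860 and 1038 CPM in AL and 873, 644 and 642 CPM in CR, and its log2 fold change was -0.53 ± 0.27 (SE; padj 0.213). *Itgb3* was the least changed. Its levels were 722, 485 and 708 CPM in AL and 694, 452 and 597 CPM in CR, with a log2 fold change of -0.14 ± 0.26 (SE; 95% interval -0.70 to 0.43, padj 0.777). *Itga2b*, *Gp1ba*, *Gp6* and *Vwf* overlapped between diets, with estimates of -0.37, -0.45, -0.47 and -0.55 on the log2 scale in that order.

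Averaged over both genotypes, the log2 effect of CR lay below 0 for all 9 genes, and 8 of 9 passed the test, against 34.5% of all tested genes. *Gp9* fell by 0.88 on the log2 scale (SE 0.19, padj 0.00438), and for it alone of the 9 all 7 CR libraries lay below all 7 AL libraries. The share of all genes with such a separation was not counted. *Ppbp* fell by 0.80 (SE 0.18, padj 0.00452) and *Gp6* by 0.76 (SE 0.23, padj 0.0219). The gene that did not pass was *Itgb3*, at -0.39 ± 0.17 (SE; padj 0.0952). The count was 8 in the other scalings, without the filter, in the deposited matrix and in DESeq2, which called 38.8% of all genes. It was 0 with the fold change criterion added, against 1277 of all 17494 genes. Leaving out single libraries gave 5 to 9, 5 being the count without BMAd-Pnpla2-/- CR replicate 2, against 4972 of 18010 genes.

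Deletion of *Pnpla2* was compared within each diet. In AL mice none of the 9 genes passed (edgeR, 0 of 17494 genes called, 0%), 0 had an unadjusted p under 0.05, as 3.97% of all genes did, DESeq2 called 0 of the 9 and 0.109% of all genes, and the log2 differences, BMAd-Pnpla2-/- minus BMAd-Pnpla2+/+, ran from -0.32 for *Vwf* to 0.12 for *Ppbp*. The 95% interval for *Vwf* was -0.90 to 0.27 and that for *Ppbp* -0.42 to 0.66, so that these data cannot separate no difference from one of that size. In CR mice none of the 9 passed in edgeR, which called 0.0171% of all genes. None passed in DESeq2 either, which called 12.2% of the 13085 genes it gave an adjusted p. The edgeR count over all genes, 3, was 2092 without BMAd-Pnpla2+/+ CR replicate 4, when again none of the 9 passed. An unadjusted p under 0.05 was found for 1 of the 9 and for 23.2% of all genes, and the differences ran from -0.03 for *Gp5* to 0.67 for *Ppbp*. That 1 gene was *Ppbp*, with every BMAd-Pnpla2-/- CR library above every BMAd-Pnpla2+/+ CR library, a separation whose share over all genes was not counted. Its log2 difference was 0.67 ± 0.25 (SE; 95% interval 0.13 to 1.20), with an unadjusted p of 0.0182 and padj 0.142 in edgeR. *Gp6* was at 29.0 ± 11.1 CPM in BMAd-Pnpla2+/+ CR (SD, n = 4) and 41.7 ± 9.68 CPM in BMAd-Pnpla2-/- CR (SD, n = 3), with a log2 difference of 0.52 ± 0.32 (SE; padj 0.344).

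Whether the effect of CR differed between genotypes was tested with the interaction of genotype and diet. It was above 0 for all 9 genes, which means a smaller estimated fall in BMAd-Pnpla2-/- mice, and was called for none of them in edgeR, where 0% of all genes was called and 0 of the 9 genes had an unadjusted p under 0.05, as 10.4% of all genes did. DESeq2 called none of the 9 as well, and 0.820% of the genes it tested. The largest estimates were 0.58 ± 0.45 for *Gp6* (SE; padj 0.65), 0.55 ± 0.35 for *Ppbp* (SE; padj 0.591) and 0.52 ± 0.35 for *Itgb3* (SE; padj 0.604). The smallest was 0.06 ± 0.34 for *Gp5* (SE; padj 0.962). The interval for *Gp6* ran from -0.41 to 1.56, so a reversal and a full loss of the CR effect in BMAd-Pnpla2-/- mice both lay inside it. The 9 interactions come from the same libraries and are not independent of each other.

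**Figure D3:**
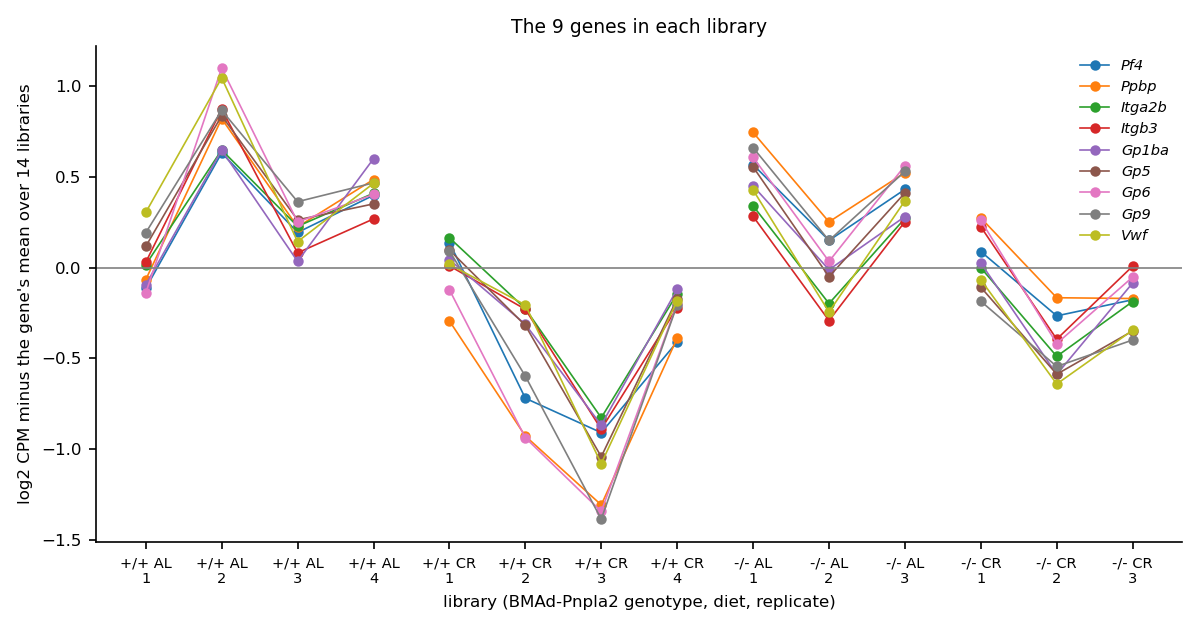
log2 CPM of each gene minus its own mean over 14 libraries (vertical axis), by library (horizontal axis), with lines joining libraries of 1 group. The 9 lines run close together; BMAd-Pnpla2+/+ AL replicate 2 is the highest of its group for all 9 genes and BMAd-Pnpla2+/+ CR replicate 3 the lowest of its group for all 9.

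From library to library the 9 genes rose and fell together. Within BMAd-Pnpla2+/+ AL, replicate 2 was the highest of the 4 libraries for 9 of 9 genes, and replicate 1 the lowest for 8. Within BMAd-Pnpla2+/+ CR, replicate 1 was the highest and replicate 3 the lowest for 9 of 9. Replicate 1 was the highest and replicate 2 the lowest for all 9 genes in BMAd-Pnpla2-/- AL, and for 9 and 8 genes in BMAd-Pnpla2-/- CR. Summed over the 9 genes, levels ran from 2674 to 4630 CPM in BMAd-Pnpla2+/+ AL and from 1282 to 2591 CPM in BMAd-Pnpla2+/+ CR. In BMAd-Pnpla2-/- mice the sums ran from 2582 to 3739 CPM in AL and from 2018 to 2866 CPM in CR, so that the highest CR library lay above the lowest AL library. Over the 36 pairs of genes, Pearson's r of log2 CPM across the 14 libraries had a median of 0.92 and a range of 0.81 (*Ppbp* with *Vwf*) to 0.98. After the mean of each group was taken away, the median was 0.92 and the range 0.80 (*Pf4* with *Vwf*) to 0.98 (*Itga2b* with *Gp5*). These coefficients describe libraries that share scaling and composition, and no p is attached to them.

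Other marrow cells moved between the same libraries. BMAd-Pnpla2+/+ CR replicates 2 and 3, which held the 2 lowest sums of the 9 genes in that group, had erythroid marker sums of 11731 and 10900 CPM against 34603 and 52729 CPM in replicates 1 and 4. Their neutrophil marker sums were 13200 and 14430 CPM against 23105 and 24807 CPM. Their adipocyte marker sums were 6095 and 6325 CPM against 5027 and 2524 CPM. In BMAd-Pnpla2+/+ AL, replicate 2, the highest for the 9 genes, had 35122 CPM of erythroid and 983 CPM of adipocyte markers, and replicate 1, mostly the lowest, had 18922 and 2123 CPM. The erythroid sums did not follow the 9 genes in every group. In BMAd-Pnpla2-/- CR, replicate 2, the lowest for 8 of the 9 genes, had the highest erythroid sum, 53261 CPM, against 43629 CPM in replicate 1, the highest for all 9, and their adipocyte sums were 2429 and 1808 CPM. Over the 12 erythroid markers, none of 11 tested passed the test under CR in either genotype. Neutrophil markers passed as lower in 6 of 10 cases in BMAd-Pnpla2+/+ and in none of 10 in BMAd-Pnpla2-/- mice. All 10 had estimates below 0 in both genotypes, with medians of -0.66 and -0.41 on the log2 scale. The rises and falls counted next are likewise those that passed. Beside all these marker counts stand those over all 17494 tested genes. There 2628 rose and 1915 fell in BMAd-Pnpla2+/+ mice, and 1051 rose and 974 fell in BMAd-Pnpla2-/- mice. Markers of mast cells and basophils fell in 1 of 6 tested in each genotype, those of pro-B and pre-B cells in 6 of 12 in each, macrophage markers rose in 4 of 10 and 1 of 10, and stem and progenitor markers rose in 3 of 8, with 1 lower, and 2 of 8. Adipocyte markers rose in 8 of 9 in both. No marker of these lists had an interaction of genotype and diet that passed the test in edgeR, where 0 of all 17494 genes passed. The part of these shifts in the levels of the 9 genes was not tested.

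Genes whose pattern over the 14 libraries was most like the mean z-score of *Pf4*, *Ppbp*, *Itga2b*, *Gp1ba*, *Gp5*, *Gp6* and *Gp9* were sought among 12905 genes whose counts averaged 50 or more a library. The 10 nearest were *Alox12* (r = 0.98), which encodes platelet 12-lipoxygenase, *Diras2*, *P2rx1*, the ATP-gated channel of platelets, *Parvb*, *Sec14l5*, *Trpc6*, *Slc6a4*, the serotonin transporter, *Tubb1*, the beta-tubulin of the platelet's marginal band, *Nipal3* and *Diaph1* (r = 0.97). Of these, 3 stood in a list of megakaryocyte genes drawn up here, *Alox12*, *P2rx1* and *Tubb1*. Their likeness was measured over the same AL and CR libraries, so their differences between diets follow from how they were chosen and are given as a description. In BMAd-Pnpla2+/+ mice these ran from -0.34 for *Diaph1* to -2.05 for *Slc6a4* on the log2 scale. In BMAd-Pnpla2-/- mice they ran from -0.19 for *Diaph1* to -1.57 for *Slc6a4*, with *Parvb* at -0.76 beside -0.72 in controls and *P2rx1* at -0.56 beside -0.63.

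*Vwf* was most like *Proser2* (r = 0.98), *Gnaz*, *Alox12*, *Aff1* and *Nomo1*, with no endothelial marker among the 5. *Itgb3* was most like *Pde3a* (r = 0.99), *Tnik*, *Prkca*, *Inafm2* and *Proser2*. Which cells gave the *Vwf* and *Itgb3* transcripts was not tested. For *Pde3a*, a phosphodiesterase that breaks down cyclic AMP in platelets, the CR estimate was -0.68 in control mice and -0.0043 in the deleted mice, on the log2 scale. Of the 65 list genes with enough counts, 19 had r over 0.9 with the mean z-score, among them *Treml1* (r = 0.96) and *Nfe2* (r = 0.91). The lowest of the 19, *Pde5a*, ranked 150 among the 12905 genes, so genes outside the lists passed 0.9 too. At the other end of the 65 lay the ligand genes *Kitl* (r = -0.84) and *Cxcl12* (r = -0.83).

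**Figure D4:**
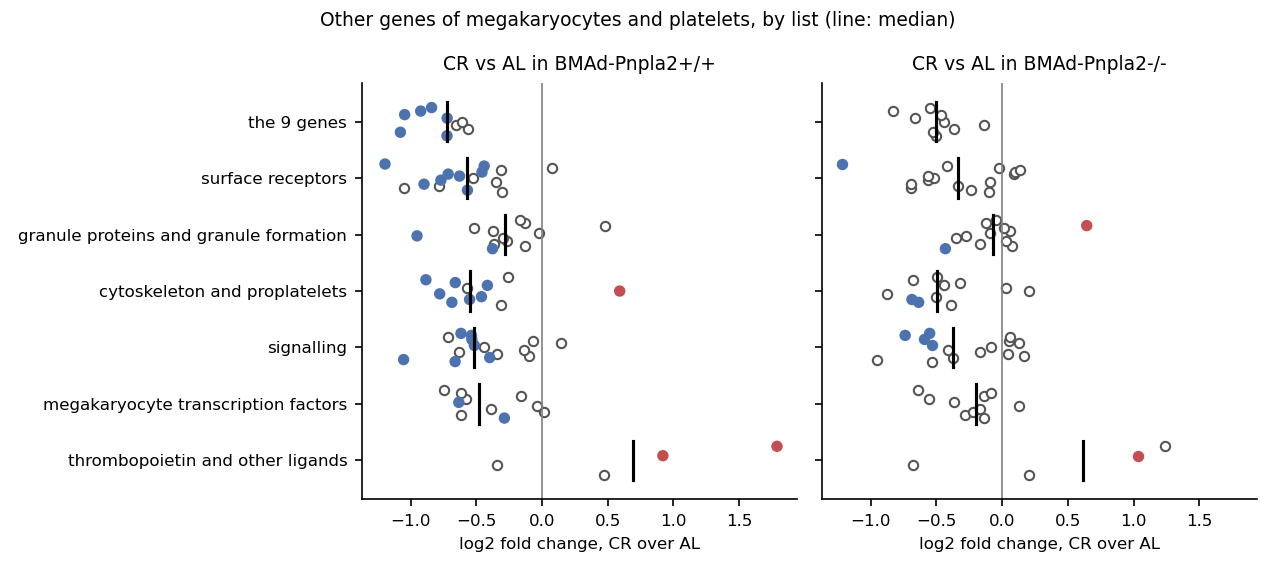
log2 fold change of CR over AL (horizontal axis) of the 9 genes and of 67 other genes of megakaryocytes and platelets, by list (vertical axis), in BMAd-Pnpla2+/+ (left) and BMAd-Pnpla2-/- mice (right). Filled points have padj under 0.05 (blue lower, red higher) and the line is the list's median; most medians lie below 0, and that of thrombopoietin and other ligands lies above it.

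The rest of the lineage was read from 71 further genes in 6 lists. Only genes of the deposited matrix were tested, so that *Flna*, though abundant at 1997 to 3057 CPM, went untested. In all, 67 of the 71 were tested. In BMAd-Pnpla2+/+ mice 26 were lower and 3 higher under CR, with a median log2 fold change of -0.44, against 10.9% lower among all genes. In BMAd-Pnpla2-/- mice 8 were lower and 2 higher, with a median of -0.24, against 5.57% lower among all genes. Whether the lists differed between genotypes was judged gene by gene. No interaction passed the test in edgeR, where 0 of all 17494 genes passed, so this is not particular to the lists.

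Surface receptors other than the 9 genes fell in 8 of 15 cases in BMAd-Pnpla2+/+ mice. *Treml1*, an alpha granule receptor that reaches the surface on activation, fell by 1.19 on the log2 scale, the largest fall of the list, from 77.6 ± 18.4 to 33.9 ± 11.2 CPM (SD, n = 4 each, padj 0.00678). *Treml1* also fell in BMAd-Pnpla2-/- mice, by 1.22, from 80.0 ± 18.0 to 34.4 ± 7.55 CPM (SD, n = 3 each, padj 0.0213), the only receptor of the list to pass there. The thrombin receptor *F2rl3* fell by 0.90 and the ADP receptors *P2ry1* and *P2ry12* by 0.71 and 0.46 in BMAd-Pnpla2+/+ mice, all with padj under 0.05. *Selp*, P-selectin, which endothelial cells also make, had the highest estimate in BMAd-Pnpla2+/+ mice, 0.07, and *Ptger3*, a prostaglandin E receptor, in BMAd-Pnpla2-/- mice, 0.13, and neither passed.

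Cytoskeletal and proplatelet genes fell in 7 of 11 cases in BMAd-Pnpla2+/+ mice and rose in 1. *Tubb1* had the largest fall, from 250 ± 60.6 to 135 ± 46.8 CPM (SD, n = 4 each, log2 fold change -0.88, padj 0.0223). The exception was *Mylk*, the myosin light chain kinase of smooth muscle as well as platelets, which rose by 0.59 (padj 0.0284). In BMAd-Pnpla2-/- mice 2 of 11 fell, *Fermt3*, the integrin activator kindlin-3, by 0.69 and *Bin2* by 0.64, and both fell in BMAd-Pnpla2+/+ mice too. *Myl9*, at -0.87, had the lowest estimate there and did not pass (padj 0.0543).

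Signalling genes fell in 7 of 15 cases in BMAd-Pnpla2+/+ and 4 of 15 in BMAd-Pnpla2-/- mice. The 4 were *Syk*, *Plcg2*, *Rasgrp2* and *Tbxas1*, which also fell in BMAd-Pnpla2+/+ mice. *Syk* and *Plcg2* act downstream of *Gp6*, together with *Fcer1g*, the chain that *Gp6* signals through, and these 3 are shared with B cells or myeloid cells. *Dok2*, an adaptor, had the lowest estimates, -1.05 in BMAd-Pnpla2+/+ (padj 0.0281) and -0.96 in BMAd-Pnpla2-/- mice (padj 0.0991). *Prkg1* and *Gng11* had the highest, 0.15 and 0.16, in BMAd-Pnpla2+/+ and BMAd-Pnpla2-/- mice, and did not pass.

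Of the granule proteins, 2 of 12 were lower in BMAd-Pnpla2+/+ mice, with a median log2 fold change of -0.28, and 1 was lower and 1 higher in BMAd-Pnpla2-/- mice. *Rab27b*, a GTPase of granule formation, fell by 0.95 on the log2 scale, the largest fall of the list (padj 0.0268), from 86.6 ± 33.8 to 44.8 ± 14.1 CPM (SD, n = 4 each). *Clu*, clusterin, fell in both genotypes, by 0.38 and 0.43. *Timp3*, a protease inhibitor also made by stromal cells, rose in BMAd-Pnpla2-/- mice by 0.64, from 137 ± 9.05 to 213 ± 36.0 CPM (SD, n = 3 each), just inside the threshold (padj 0.0496), and had an estimate of 0.48 in BMAd-Pnpla2+/+ mice (padj 0.0535).

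Transcription factors of the lineage fell in 2 of 10 cases in BMAd-Pnpla2+/+ mice, *Meis1* by 0.63 and *Fli1* by 0.29, and in none of 10 in BMAd-Pnpla2-/- mice. The shares of all genes that fell were 10.9% and 5.57% in the same order. *Zfpm1*, the GATA1 cofactor FOG1, had the lowest estimates in both genotypes, -0.75 and -0.64, without passing. *Gata1*, which erythroid cells also express, was at -0.62 (padj 0.188) and -0.28, *Gata2* had the highest estimate in BMAd-Pnpla2+/+, 0.02, and *Mef2c* in BMAd-Pnpla2-/- mice, 0.12. The median estimate of the erythroid markers was -0.52 in control mice and 0.11 in the deleted mice, on the log2 scale.

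Ligands rose in 2 of 4 cases tested in BMAd-Pnpla2+/+ mice and in 1 of 4 in BMAd-Pnpla2-/- mice, and fell in none. Of all 17494 genes, 2628 and 1051 rose in the same order. *Thpo* encodes thrombopoietin, the hormone that drives megakaryocyte growth and comes mainly from liver, and its transcript was scarce in marrow. It went from 0.359 ± 0.265 to 1.26 ± 0.441 CPM in BMAd-Pnpla2+/+ mice (SD, n = 4 each), a rise of 1.79 on the log2 scale (SE 0.54, padj 0.0292) that rests on a mean of 12.7 counts a library. *Kitl*, stem cell factor, rose in both genotypes, by 0.92 (padj 0.00865) and 1.03 (padj 0.0188). *Cxcl12*, a chemokine of marrow stromal cells, was at 4563 ± 484 and 6325 ± 1799 CPM in BMAd-Pnpla2+/+ AL and CR (SD, n = 4 each) and did not pass (log2 fold change 0.47, padj 0.122).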

How the data were processed

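RNA of bone marrow plugs from distal tibiae was sequenced in 14 libraries with read pairs of 100 bases. The study describes them as strand-specific mRNA, while by their counts 11 were stranded and 3 were not. The authors checked reads with FastQC 0.11.9, mapped them with STAR on mm10, and deposited raw read counts per gene, without strand and for each strand, with a matrix of raw counts. In that matrix 11 libraries hold second-strand counts and the 3 BMAd-Pnpla2-/- CR libraries unstranded counts, so the unstranded counts of all 14 were used here.

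Counts of the 23441 matrix genes were scaled by TMM and filtered with filterByExpr in edgeR 4.0.16 (R 4.3.3, limma 3.58.1), which kept 17494. A robust quasi-likelihood model of the 4 groups was tested with two-sided contrasts, and padj is Benjamini-Hochberg adjusted within each contrast; a gene was called at padj under 0.05. CPM used TMM-scaled totals and log2 CPM a prior count of 2; intervals are 95%. DESeq2 1.42.0 was an alternative. Replicates are pools of 2 mice, and p-values measure the spread between pools. No pair of replicates agreed within sampling noise. Exon lengths and coordinates came from GENCODE M21 (GRCm38), where 54349 of 55401 identifiers matched with their version.

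Named genes were *Pnpla2* and the 9 genes. In each list, the genes with the highest and lowest log2 fold change per genotype were named, among those averaging 50 or more counts a library. Outside the 9 genes, the 10 most like 7 of the members and the 5 most like *Vwf* and *Itgb3* were named. So was the most abundant gene of each marker list. *Thpo*, *Gp1bb* and other list genes were named after their values were seen. The 9 genes and all lists were chosen with earlier results of these data known. The test was tried on simulated counts, with the criterion for passing set on the larger changes after smaller ones proved hard to recover.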

Additional observations from a re-analysis of the deposited data

How the results depend on the processing

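In BMAd-Pnpla2+/+ mice all 9 CR estimates stayed below 0 under every alternative run, while the number called, 6, became 2 with a fold change criterion added and 1 with only the 2 groups compared. In BMAd-Pnpla2-/- mice the number called, 0, became 1 in DESeq2's Wald test and 3 with only the 2 groups compared. For the mean of both genotypes the 8 calls became 0 with the fold change criterion. Leaving out 1 library at a time gave 1 to 9 calls in BMAd-Pnpla2+/+ mice, 0 to 2 in BMAd-Pnpla2-/- mice and 5 to 9 for the mean of both genotypes. The cause of these changes was not tested.

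Estimates near 0 changed sign. For BMAd-Pnpla2-/- against BMAd-Pnpla2+/+ in CR, *Vwf* was 0.0073 with the deposited matrix and 0.018 with the replicate block, *Gp5* 0.0050 with the replicate block, and *Itga2b* -0.021 with DESeq2 size factors, -0.041 without the low-count filter and -0.021 in DESeq2. With 1 library left out the ranges in CR were -0.15 to 0.16 for *Itga2b*, -0.071 to 0.25 for *Gp1ba*, -0.21 to 0.135 for *Gp5*, -0.16 to 0.29 for *Gp9* and -0.21 to 0.11 for *Vwf*. In AL they were -0.026 to 0.22 for *Pf4*, -0.0098 to 0.29 for *Ppbp*, -0.20 to 0.039 for *Gp1ba*, -0.21 to 0.081 for *Gp5*, -0.21 to 0.24 for *Gp6* and -0.14 to 0.12 for *Gp9*. The interaction ran from -0.12 to 0.23 for *Gp5* and -0.13 to 0.32 for *Gp9*, and the CR effect on *Itgb3* in BMAd-Pnpla2-/- mice from -0.30 to 0.014.

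The sample titles give replicate numbers only, and libraries were not paired by them. Of 19 same-numbered pairs of libraries, 7 had deviations from their group means correlated above 0.1 (range -0.37 to 0.33). Differently numbered pairs ranged from -0.44 to 0.36. These correlations cannot show whether equal numbers mark a pairing. With the replicate block, 6, 0 and 8 of the 9 genes were called in BMAd-Pnpla2+/+, BMAd-Pnpla2-/- and the mean of both genotypes, as without it. The run on all 55401 genes was added after seeing the data and gave the same 6, 0 and 8 calls. A gene that was not called is not shown to be unchanged.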
